A study of Mus musculus with 24 samples.

Results

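The genes described here are 10 genes by which astrocytes take up glutamate, potassium and water, couple to each other and are recognised: Slc1a2, Slc1a3, Glul, Aqp4, Kcnj10, Gja1, Gjb6, Aldh1l1, Aldoc and S100b. They were chosen by symbol for their roles, with no threshold on a measured value, and each matched 1 of the 49315 gene identifiers that every count table lists. Their levels are followed over 24 RNA sequencing libraries in 6 groups.

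The cells were primary astrocytes from the cortex of wild type C57BL/6J mice, taken from late-gestation embryos. The embryos of a litter were pooled, and the cells were grown in medium with fetal bovine serum and used in their first passage. Plated cells were exposed 3 days later to 0.1 or 2 Gy X-rays, or were mock-irradiated (0 Gy), and were lysed 6 h or 24 h afterwards. Each group holds 4 libraries with the replicate numbers 1 to 4, called biological repeats by the submitters. Whether a number stands for a separate litter, or for the same cells at both times, is not given in the sources used here. All RNA was isolated on the same day and sequenced in the same run after selection of polyadenylated RNA. No group carries an altered allele or another agent, and the mock-irradiated cells of a time serve as controls for both doses, so that the comparisons of 0.1 Gy and of 2 Gy share those 4 libraries.

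Astrocytes clear glutamate from the space around synapses through the transporters encoded by Slc1a2 (GLT-1, EAAT2) and Slc1a3 (GLAST, EAAT1), and glutamine synthetase, encoded by Glul, turns it into glutamine. They buffer potassium through the inward rectifier Kir4.1 (Kcnj10), let water pass through aquaporin-4 (Aqp4), and form a network through the gap junction proteins connexin 43 (Gja1) and connexin 30 (Gjb6). Aldh1l1, Aldoc and S100b encode a folate enzyme, the brain form of aldolase and a calcium-binding protein, and are widely used as astrocyte markers. In the brain many of these genes rise as astrocytes mature next to neurons.

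Total counts per library were from 14742855 to 38194800. Mitochondrial genes took 0.95 to 4.97% of them, and the gene with the most counts, in most libraries Gm42418, up to 10.42%. Values of single libraries are counts relative to library size (CPM), scaled by the trimmed mean of M-values (TMM), and levels of different genes are compared only per length, as CPM divided by the exon length in kilobases (RPKM). Of the 12 astrocyte markers all were present, with Gfap from 343 to 797 CPM and S100b lowest at 1.15 to 5.67 CPM. Apoe ranged most widely, from 486 to 6590 CPM (median 3240 CPM). The sum of the astrocyte markers ranged from 3050 to 10000 CPM (median 6360 CPM), so that much of it came from Apoe. Apart from Gfap, Sox9, Fgfr3 and Apoe, the markers of this list are genes described here, and their sum is not independent of them. The 12 microglia markers summed to 257 to 2980 CPM, and both extremes of this sum lay within the mock-irradiated groups. In the 6 libraries with replicate number 2 the microglia sum was 257 to 296 CPM, and in the 18 others it was 1780 to 2980 CPM. The 12 neuronal markers summed to 411 to 751 CPM, mostly from Stmn2 (181 to 322 CPM), Map2 (105 to 424 CPM) and Tubb3 (35.1 to 123 CPM), while Rbfox3 stayed at or below 0.887 CPM and Snap25 at or below 1.26 CPM. The markers of the oligodendrocyte lineage (12) summed to 409 to 897 CPM, mostly from Olig1 (151 to 537 CPM), Olig2 (59.2 to 191 CPM), Cnp (57.2 to 193 CPM) and Cspg4 (12.5 to 131 CPM), with Mog at or below 0.372 CPM, and those of ependymal cells (8) to 85.6 to 384 CPM. The 12 markers of fibroblasts and vessels summed to 3530 to 7850 CPM, mostly from Acta2, with Cldn5 at or below 0.0698 CPM. In such bulk RNA, fewer astrocytes and less RNA per astrocyte cannot be told apart.

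Per length, Glul (165 ± 25.4 RPKM, mean ± SD, n = 24) and Kcnj10 (160.3 ± 25.2 RPKM) stood at the top and Gjb6 at the bottom. Their order between each other was not settled, since Glul lay above Kcnj10 in 14 of 24 libraries. Aqp4 followed at 106 ± 31.0 RPKM and was below Kcnj10 in all 24 libraries. Aldh1l1 (67.9 ± 22.2 RPKM), Gja1 (67.7 ± 14.2 RPKM), Aldoc (58.7 ± 13.2 RPKM) and Slc1a3 (56.2 ± 12.8 RPKM) formed a middle tier in which neighbours overlapped. Aldh1l1 exceeded Gja1 in 10 of 24 libraries, Gja1 exceeded Aldoc in 19 and Aldoc exceeded Slc1a3 in 13.

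The step below that tier was wide. Slc1a2 reached 3.85 ± 1.05 RPKM (mean ± SD, n = 24) and S100b 1.90 ± 0.975 RPKM, and Slc1a2 was the higher of these in 23 of 24 libraries. The ratio of the 2 glutamate transporters, Slc1a3 over Slc1a2, had a median of 16.2 and ran from 7.02 to 25.3, so that the groups of the transporters overlapped in none of the 6 conditions. Gjb6 was listed with 0 to 11 counts per library, 100 counts in all, and 3 libraries had no count. A count of 0 allows up to 3 counts in a library, and the low counts of Gjb6 did not pass the filter of any comparison. Among all listed genes ranked by mean RPKM, Glul was at place 208 and Slc1a3 at place 798, whereas Slc1a2 was at place 8948.

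**Figure D1:**
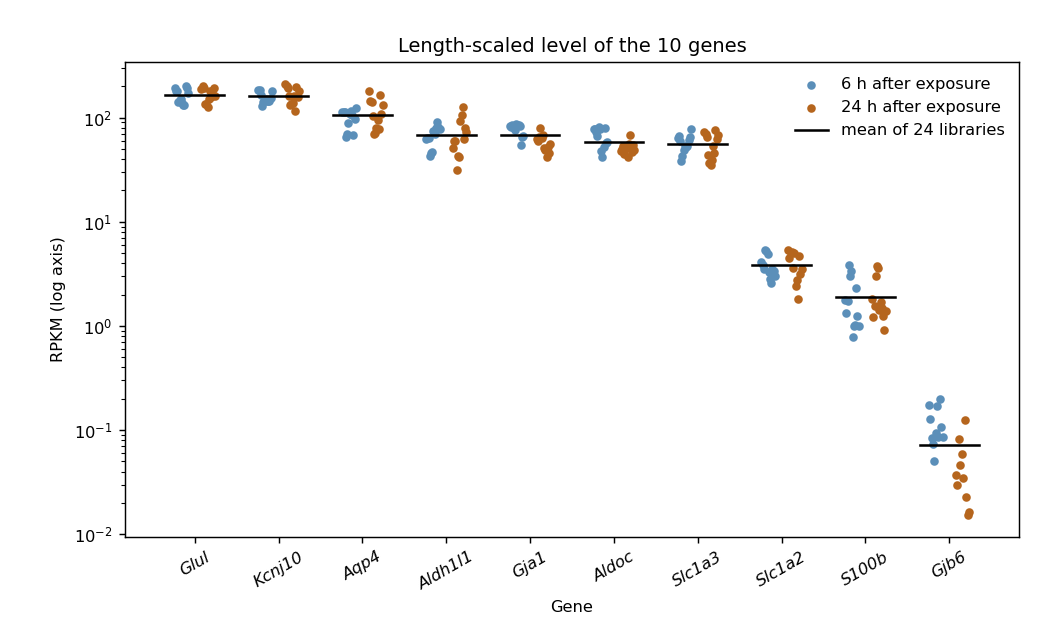
Length-scaled level (RPKM, log axis) of the 10 genes, with 1 point for each library at 6 h (blue) and 24 h (brown) and a black bar for the mean of 24 libraries; the 3 libraries without a Gjb6 count cannot be drawn on a log axis. From Glul to Slc1a3 the means lie between 165 and 56.2 RPKM, the means of Slc1a2 (3.85 RPKM) and S100b (1.90 RPKM) lie far below them, and Gjb6 is lowest.

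Which replicate number a library carried moved these genes more than dose did. In 7 of the 9 genes with enough counts, the replicate number within a time accounted for 69.9 to 92.5% of the variation of log2 CPM over the 24 libraries, beside a median of 50.2% over the 17353 genes kept. The share was highest for Aldh1l1 (92.5%) and Glul (89.0%). Dose within a time accounted for 2.32% (Slc1a3) to 12% (Aqp4), beside a median of 7.30% over all genes. Gja1 and Aldoc differed from the rest, with 47.6% and 32.2% of their variation between 6 h and 24 h, against at most 4.35% for the 7 other genes.

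**Figure D2:**
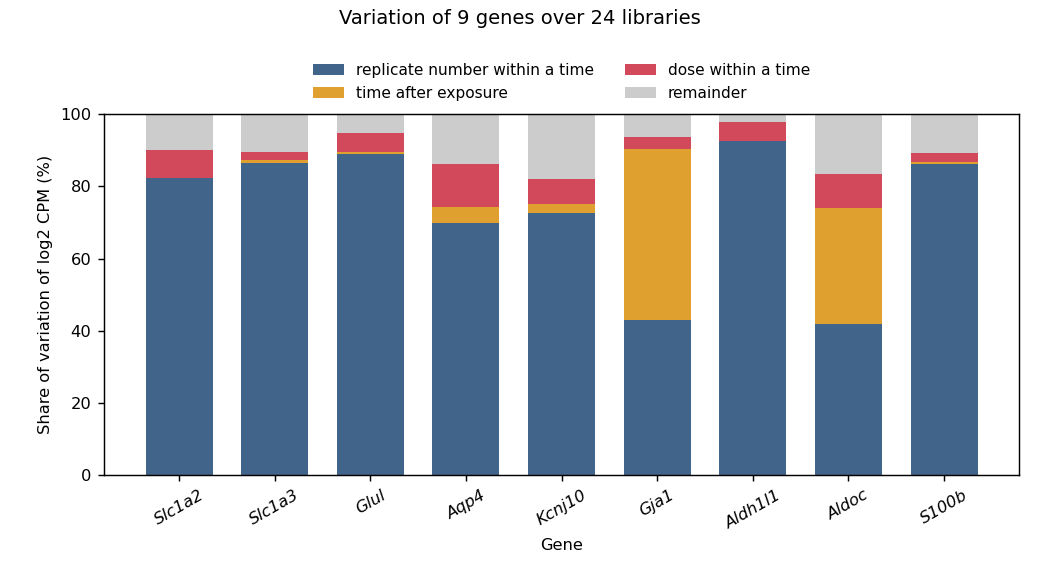
Share of the variation of log2 CPM over 24 libraries (%) taken by replicate number within a time, by time, by dose within a time and by the remainder, for the 9 genes with enough counts. The replicate number takes the largest share in every gene but Gja1, where time takes 47.6%.

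The numbers did not shift the genes in the same direction. Averaged over the 3 doses at 6 h, replicate number 2 had the highest Slc1a2 (68.0 CPM, against 37.96 to 50.06 CPM in the other numbers) and the highest S100b (5.04 CPM, against 1.38 to 2.39 CPM). The same libraries had the lowest Slc1a3 (369.8 CPM, against 453.8 to 577.9 CPM), the lowest Aqp4 (380.0 CPM, against 491 to 575 CPM) and the lowest Aldh1l1 (204 CPM, against 286 to 376 CPM). At 24 h replicate number 2 again had the lowest Aldh1l1 (175 CPM) and the highest S100b (5.12 CPM), and replicate number 3 had the highest Aldh1l1 (489 CPM) and the lowest Slc1a2 (30.7 CPM). Replicate number 2 is also the number with the low microglia sum. Averaged over the doses at 6 h and 24 h, its astrocyte marker sum, which includes Apoe and most of the genes described here, was the lowest (4000 and 3310 CPM, against at least 5600 and 6820 CPM in the other numbers). Its neuronal sum (633 and 687 CPM, against at most 460.0 and 543 CPM) and its sum for the oligodendrocyte lineage (798 and 806 CPM, against at most 562 and 732 CPM) were the highest, and the part of other cell types in these differences was not tested.

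**Figure D3:**
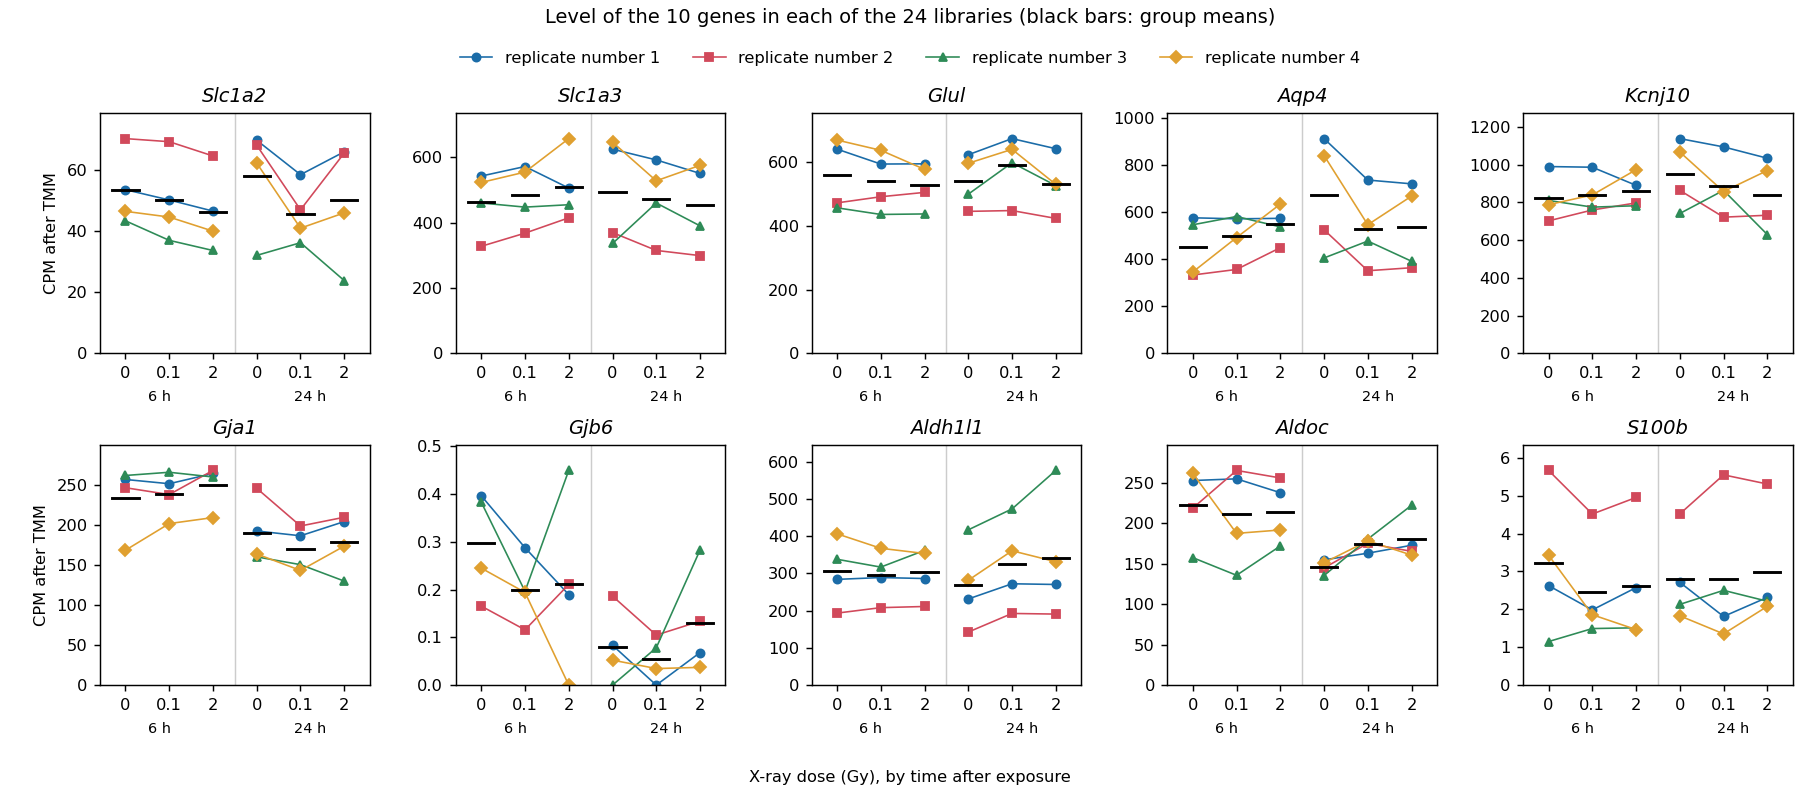
CPM after TMM scaling of each of the 10 genes in all 24 libraries, by dose and time, with lines joining libraries of the same replicate number within a time and black bars for group means. The 4 lines of Slc1a2 keep their order over the 3 doses at both times, while those of most other genes cross; for S100b replicate number 2 stays on top and lies at 4.51 to 5.67 CPM and all other libraries at or below 3.43 CPM.

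The first question of the design is whether a dose alters expression 6 h after exposure, and at 6 h no change was called in these genes. In edgeR's quasi-likelihood test without pairing, 0 of the 9 tested genes passed an adjusted p of 0.05 at 0.1 Gy and 0 of 9 at 2 Gy, beside 0% of 16020 and 0% of 15994 genes tested. Over all genes, 24 and 215 had an unadjusted p under 0.05 (edgeR), DESeq2 called 0 and 1, and limma voom called 0 at both doses. No tested gene of the group had an unadjusted p under 0.05 in either comparison, and DESeq2 and limma voom also called none. Blocked on the replicate number, the counts were again 0 of 9 for each dose, beside 0% of all genes, although Slc1a2 at 2 Gy then had an unadjusted p of 0.0181 (edgeR). When gene length and GC content were also corrected for in each library, 0 of 9 were called at each dose, beside 0% of all genes at 0.1 Gy and 0.719% (115 genes) at 2 Gy, and 1 and 2 of the 9 had an unadjusted p under 0.05 (edgeR).

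For the transporter Slc1a2 at 6 h the order of the doses was the same in every replicate number. The mock-irradiated libraries with the numbers 1 to 4 had 53.5, 70.2, 43.3 and 46.4 CPM, those at 0.1 Gy 50.15, 69.2, 36.9 and 44.6 CPM, and those at 2 Gy 46.5, 64.5, 33.6 and 39.95 CPM. Each number was thus lower at 0.1 Gy than at 0 Gy and lower again at 2 Gy, while the groups overlapped widely. At 2 Gy the log2 difference was -0.21 ± 0.22 (SE) without the block and -0.23 ± 0.077 with it, at adjusted p-values of 1.0 and 0.669 (edgeR). After correcting for length and GC it was -0.30 ± 0.082 (unadjusted p = 0.00442, adjusted p = 0.201, edgeR).

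Aqp4 at 6 h spread widely within the mock-irradiated group. Mock-irradiated libraries held 577, 333, 547 and 346 CPM and those at 2 Gy 575, 449.6, 538 and 635 CPM. Only the numbers 2 and 4 were higher at 2 Gy, by 0.43 and 0.88 on the log2 scale. In these the mitochondrial share of counts went from 2.42 to 4.22% and from 1.96 to 3.62%, against 1.25 to 1.49% in number 1 and 3.07 to 2.93% in number 3. Slc1a2 was lower at 2 Gy in all 4 numbers. The part of the mitochondrial share was not tested. For Aqp4 at 2 Gy the log2 fold change was 0.29 ± 0.21 (SE). At 0.1 Gy it was 0.15 ± 0.23. S100b had log2 fold changes of -0.39 ± 0.51 at 0.1 Gy and -0.29 ± 0.53 at 2 Gy on 24 to 141 counts per library, and both turned positive, to 0.04 and 0.14, without replicate 2 of the 0 Gy group. Slc1a3 and Gja1 differed at 2 Gy by 0.13 ± 0.20 and 0.10 ± 0.15, and the remaining values at 6 h were within 0.1 of 0.

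At 24 h the question is the same. Aldh1l1 and Aldoc lay higher and Slc1a2, Aqp4 and Kcnj10 lower in irradiated than in mock-irradiated libraries of the same number in most pairs. How many of all genes kept a direction over the pairs was not counted. Slc1a2 was already lower in 4 of 4 pairs at both doses at 6 h. After correcting for length and GC, with the block, Slc1a2 (0.018) and Aqp4 (-0.05) at 2 Gy were within 0.1 of 0. Aldh1l1 (0.22), Aldoc (0.21) and Kcnj10 (-0.14) were not. Without pairing, 0 of 9 genes passed edgeR's quasi-likelihood test at 0.1 Gy and 0 of 9 at 2 Gy, beside 0% of 16183 and 0% of 15892 genes, and DESeq2 and limma voom called none of the 9 either. Over all genes, 241 and 570 had an unadjusted p under 0.05 (edgeR), DESeq2 called 0 and 103, and limma voom called 0 at both doses. At an unadjusted p under 0.05 there was 1 such gene at 0.1 Gy (Aldoc) and 0 at 2 Gy. With the replicate number as a block, edgeR called 0 of 9 at 0.1 Gy, beside 6.84% of all genes, and 1 of 9 at 2 Gy, beside 13.2% of all genes. The gene called was Aldh1l1. The median log2 difference of the 9 genes with the block was -0.07 at 0.1 Gy and -0.09 at 2 Gy, and over all genes tested it was -0.003 and 0.004.

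Aldh1l1, the folate-metabolising dehydrogenase, was higher in all 4 pairs at both doses. Mock-irradiated libraries with the numbers 1 to 4 held 231, 142, 417 and 281.5 CPM, those at 0.1 Gy 272, 192, 473 and 361 CPM, and those at 2 Gy 270.2, 191, 576.5 and 331 CPM. The replicate numbers differ from each other by more than the doses do, so the groups overlap, but no irradiated library lies below its own mock-irradiated partner. The log2 fold change at 2 Gy was 0.35 ± 0.38 (SE) without pairing (adjusted p = 0.94) and 0.34 ± 0.088 with the block (adjusted p = 0.0376, edgeR). At 0.1 Gy it was 0.26 ± 0.35 without pairing and 0.29 ± 0.088 with the block (adjusted p = 0.0582, edgeR), and after correcting for length and GC it was 0.17 ± 0.064 (adjusted p = 0.163, edgeR).

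The call of Aldh1l1 at 2 Gy rested on 3 of the 4 replicate numbers and on the model. It was lost without replicate number 1, 2 or 4, at adjusted p-values of 0.134, 0.195 and 0.105 (edgeR with the block), and after correcting for length and GC, where the log2 fold change was 0.22 at an adjusted p of 0.164. Its exons overlap those of the antisense gene Gm15756 by 499 bases and those of Gm45901 on the same strand by 105 bases, and whether reads were counted by strand is not given in the sources used here. The gene lies on chromosome 6 from 90486427 to 90600203 (GRCm38, plus strand).

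Aldoc, which encodes the brain aldolase of glycolysis and lies on chromosome 11 from 78322968 to 78327781 (GRCm38, plus strand), was the gene of the group whose 24 h groups did not overlap. Mock-irradiated libraries held 155, 145, 135 and 151 CPM, those at 0.1 Gy 163, 175, 180.5 and 178 CPM, and those at 2 Gy 173, 165, 222 and 161 CPM. Every irradiated library thus lay above every mock-irradiated library, which was so for 1 of 9 genes at each dose, beside 0.568% of all genes tested at 0.1 Gy and 0.944% at 2 Gy. The log2 fold change was 0.24 ± 0.10 (SE) at 0.1 Gy, at an unadjusted p of 0.0462 and an adjusted p of 0.943, and 0.30 ± 0.15 at 2 Gy, at an unadjusted p of 0.073 and an adjusted p of 0.94 (edgeR). With the block the adjusted p-values were 0.101 and 0.116 (edgeR).

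For the water channel Aqp4 the pairs went the other way. The 4 mock-irradiated libraries held 914, 526, 406 and 842 CPM, those at 0.1 Gy 738, 351.5, 478 and 547 CPM, and those at 2 Gy 721.5, 364, 392 and 669 CPM. At 2 Gy all 4 pairs were lower, and at 0.1 Gy 3 of 4, with replicate number 3 higher by 0.24 on the log2 scale. The log2 fold changes were -0.36 ± 0.31 (SE) and -0.32 ± 0.33 without pairing and -0.33 ± 0.12 and -0.31 ± 0.10 with the block, at adjusted p-values of 0.102 and 0.0696 (edgeR). After correcting for length and GC the difference was -0.11 ± 0.085 at 0.1 Gy and -0.05 at 2 Gy. The share of counts from mitochondrial genes, in the order of the numbers, was 2.17, 4.97, 1.90 and 3.65% at 0 Gy, 1.47, 2.57, 2.26 and 2.21% at 0.1 Gy and 0.95, 2.09, 1.91 and 2.18% at 2 Gy. It was lower at 0.1 Gy in the 3 pairs in which Aqp4 and Slc1a2 were lower, and higher in number 3. At 2 Gy it was lower in the numbers 1, 2 and 4 and almost level in number 3. In that number the log2 difference at 2 Gy was -0.43 for Slc1a2 and -0.05 for Aqp4. The part of the mitochondrial share in these differences was not tested.

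Slc1a2 followed Aqp4. It held 69.7, 68.0, 32.02 and 62.2 CPM in mock-irradiated libraries, 58.4, 46.9, 36.2 and 40.9 CPM at 0.1 Gy and 65.9, 65.5, 23.8 and 45.9 CPM at 2 Gy. It was lower in 3 of 4 pairs at 0.1 Gy and in 4 of 4 at 2 Gy, with log2 fold changes of -0.36 ± 0.26 (SE) and -0.20 ± 0.36. With the block the adjusted p-values were 0.104 and 0.141 (edgeR), and after correcting for length and GC the difference was -0.07 ± 0.085 at 0.1 Gy, and the sign at 2 Gy turned, to 0.018.

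Leaving out replicate number 3 moved the number of calls at 24 h upwards. With the block on the remaining numbers, 3 of 9 genes passed edgeR's test at 0.1 Gy, beside 23.2% of all genes. These were Aqp4 (-0.51 ± 0.097, adjusted p = 0.00465), Slc1a2 (-0.47 ± 0.10, adjusted p = 0.00714) and Aldh1l1 (0.34 ± 0.091, adjusted p = 0.0186). At 2 Gy 3 of 9 passed, beside 33.1% of all genes: Aqp4 (-0.39 ± 0.066, adjusted p = 0.000332), Aldh1l1 (0.30 ± 0.065, adjusted p = 0.00197) and Slc1a3 (-0.21 ± 0.063, adjusted p = 0.0176). Over all genes edgeR's calls with the block went from 1107 to between 16 (without number 4) and 3728 (without number 3) at 0.1 Gy, and from 2100 to between 69 (without number 2) and 5291 (without number 3) at 2 Gy. After correcting for length and GC 0 of 9 genes were called at each dose, beside 1.89% of all genes at 0.1 Gy and 3.51% at 2 Gy, and 2 and 1 of the 9 then had an unadjusted p under 0.05 (edgeR).

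Kcnj10, Gja1, Slc1a3 and Glul held closer to their controls. Kcnj10 ranged from 741 to 1138 CPM in mock-irradiated cells and from 629 to 1034 CPM at 2 Gy, and it was lower in 4 of 4 pairs at 2 Gy (-0.17 ± 0.22, SE) and in 3 of 4 at 0.1 Gy (-0.12 ± 0.19). With the block its difference at 2 Gy was -0.18 ± 0.087, and after correcting for length and GC -0.14 ± 0.069 (adjusted p = 0.268, edgeR). Gja1 was lower in 4 of 4 pairs at 0.1 Gy (-0.18 ± 0.18; -0.01 ± 0.066 after correcting for length and GC, with the block) and in 2 of 4 at 2 Gy. Slc1a3 had a log2 fold change of -0.12 ± 0.29 at 2 Gy, and of 0.10 ± 0.11 after correcting for length and GC, with the block. It was higher in number 3 alone, at both doses. Glul was higher in 4 of 4 pairs at 0.1 Gy, with a log2 fold change of 0.11 ± 0.17, and its value at 2 Gy was within 0.1 of 0. S100b split 2 against 2 at 0.1 Gy and was higher in 3 of 4 pairs at 2 Gy.

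**Figure D4:**
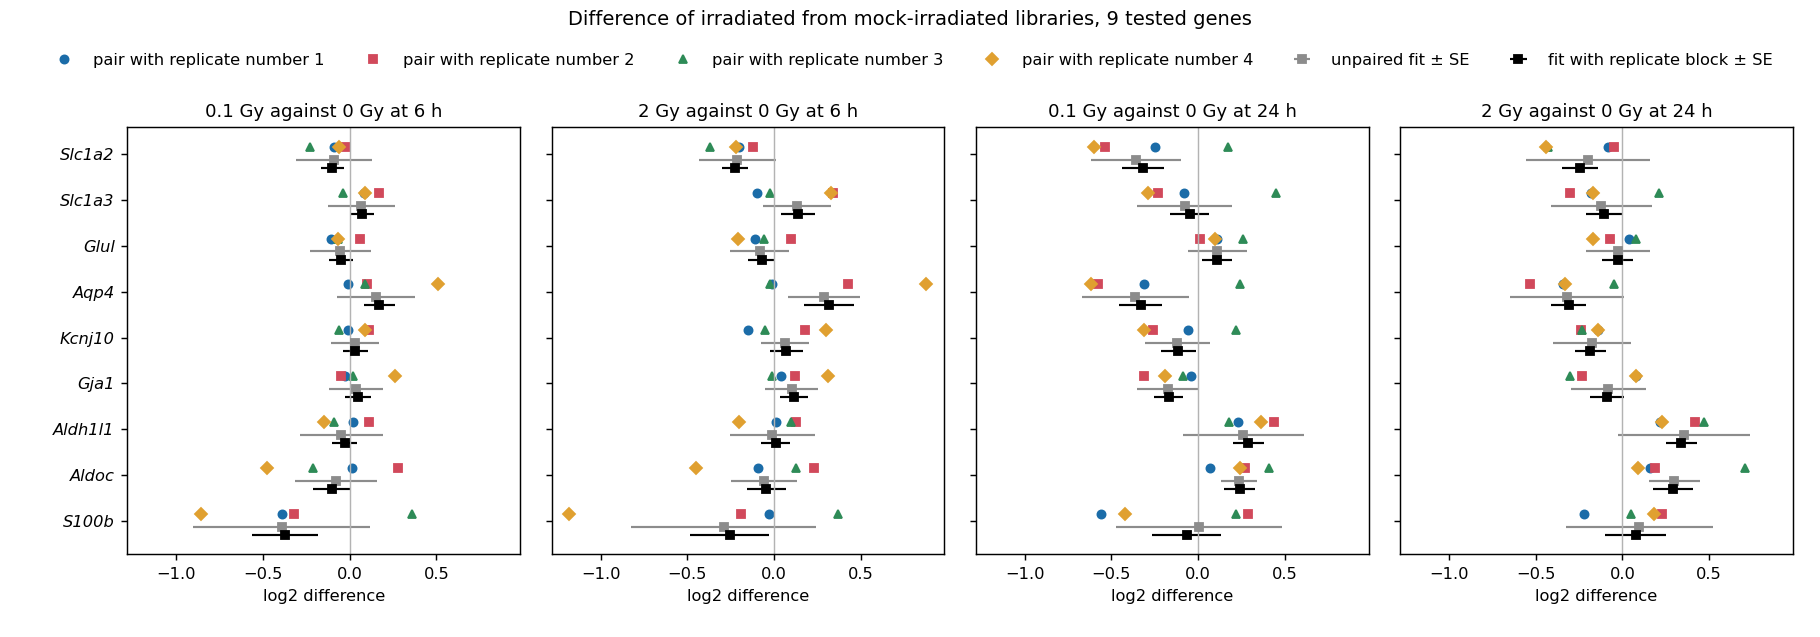
Log2 difference of irradiated from mock-irradiated libraries for 9 genes at 6 h and 24 h, with 1 coloured point for each pair of the same replicate number, and grey and black squares with bars of 1 SE for the fits without and with the replicate block. The black bars are shorter than the grey ones, and at 24 h all 4 points of Aldh1l1 and of Aldoc lie right of 0 at both doses, while those of Aqp4 and Slc1a2 lie left of 0 at 2 Gy and, except for number 3, at 0.1 Gy.

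Cell type markers at 24 h are given beside these values. The astrocyte markers summed to 3050 to 6400 CPM at 0 Gy, 3520 to 8260 CPM at 0.1 Gy and 3370 to 10000 CPM at 2 Gy, and the microglia markers to 257 to 2180, 296 to 2480 and 270.0 to 2520 CPM. The astrocyte sum includes most of the genes described here, so it is not independent of their values. It also includes Apoe, which edgeR called higher at both doses with the block. In edgeR's test with the block, 1 of 12 microglia markers was higher at 0.1 Gy, beside the 6.84% of all genes called, and 2 were higher and 1 lower at 2 Gy, beside 13.2%. The ependymal markers had a median log2 difference of 0.11 at 0.1 Gy and 0.50 at 2 Gy. At 2 Gy all 7 tested lay between 0.289 and 0.795, and 1 of the 7, Foxj1, was called at each dose (0.36 ± 0.10 and 0.56 ± 0.099, SE). Of the oligodendrocyte lineage markers 2 of 9 (Olig1 and Cnp) were higher at 0.1 Gy and 1 of 8 (Cnp) at 2 Gy. Of the neuronal markers 1 of 7 (Map2) was lower at 0.1 Gy and 0 of 6 were called at 2 Gy, and of the markers of fibroblasts and vessels 0 of 10 and 0 of 9 (edgeR with the block). In the fit that corrects for length and GC, 1 microglia marker (Trem2) was called at each dose, and no marker of ependymal cells, the oligodendrocyte lineage or neurons. At 2 Gy no marker of these 4 cell types was called without number 1, without number 2 or without number 4, and at 0.1 Gy none without number 2 or without number 4. At 0.1 Gy without number 1, C1qa, Map2, Olig1, Cnp and Foxj1 were called. Without number 3, 5 of 12 microglia markers were higher at 0.1 Gy, beside 23.2% of all genes. At 2 Gy 2 were higher and 1 lower, beside 33.1%. Map2, Olig1, Cnp and Foxj1 were called at both doses in that fit. The part of these cell types in the differences of the 9 genes was not tested.

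Between the doses at 24 h, 2 Gy against 0.1 Gy, 0 of 9 genes passed edgeR's test without the block and 0 of 9 with it, beside 0% of 16002 genes in each fit, and 0 of the 9 had an unadjusted p under 0.05 in either. After correcting for length and GC it was again 0 of 9, beside 0.650% of all genes. DESeq2 and limma voom called none of the 9. Over all genes, 215 (unblocked) and 790 (blocked) had an unadjusted p under 0.05 (edgeR), DESeq2 called 39 and limma voom 0. Without the block Slc1a2 differed by 0.16 ± 0.32 (SE) and Glul by -0.14 ± 0.18, and the others were within 0.1 of 0. With the block the values were 0.075 ± 0.16 for Slc1a2, -0.14 ± 0.083 for Glul and 0.15 ± 0.19 for S100b. Glul was lower at 2 Gy in 4 of 4 pairs.

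Between the 2 times without radiation, the 9 genes differed most in Aldoc. At 6 h it held 253, 219, 157.5 and 262 CPM and at 24 h 155, 145, 135 and 151 CPM. All 24 h libraries lay below all 6 h libraries, which was so for 1 of 9 genes, beside 7.44% of all genes tested. The log2 fold change was -0.62 ± 0.17 (SE), at an unadjusted p of 0.00506 and an adjusted p of 0.0614 (edgeR), so 0 of 9 genes were called, beside 6.70% of 15887 genes. DESeq2 (adjusted p = 0.0286), edgeR on all 24 libraries in a single fit (adjusted p = 0.0312) and edgeR without replicate 3 of 0 Gy at 6 h (adjusted p = 0.0363) called it, and limma voom called 0 of the 9 genes.

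Aqp4 was higher at 24 h by 0.56 ± 0.30 on the log2 scale (SE; adjusted p = 0.28, edgeR), from 333 to 577 CPM at 6 h and from 406 to 914 CPM at 24 h. Gja1 differed by -0.31 ± 0.19, with 168 to 261 CPM at 6 h and 159.9 to 245 CPM at 24 h. The lowest Gja1 library at 6 h was replicate 4, and the other 3 lay at 246 to 261 CPM. Kcnj10 differed by 0.20 ± 0.18, Aldh1l1 by -0.21 ± 0.32, S100b by -0.22 ± 0.48 and Slc1a2 by 0.10 ± 0.26, and Slc1a3 and Glul were within 0.1 of 0. Gjb6 had 4 to 9 counts per library at 6 h and 0 to 4 at 24 h, and no fold is given for it.

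The interaction of dose and time asks whether the 2 Gy difference at 24 h departs from that at 6 h. No gene of the group was called, 0 of 9 beside 0% of 16866 genes without the block and 0 of 9 beside 6.78% with it (edgeR), and DESeq2 and limma voom called none of the 9. At an unadjusted p under 0.05 there were 0 of 9 without the block and 2 of 9 with it, and 827 of all genes without it. DESeq2 called 4 of all genes and limma voom 0. At 2 Gy the mean level of Aqp4 lay above that of its controls at 6 h and below it at 24 h. Its interaction value was the largest in size in both of these fits: -0.60 ± 0.42 (SE) without the block and -0.62 ± 0.19 with it (adjusted p = 0.0568, edgeR). Without replicate number 3 it was -0.81 ± 0.18 (adjusted p = 0.0099, edgeR with the block), 1 of 9 genes beside 23.4% of all genes, and after correcting for length and GC it was -0.25, with 0 of 9 genes called beside 2.38% of all genes. Without the block S100b (0.40 ± 0.70), Aldh1l1 (0.37 ± 0.50) and Aldoc (0.37 ± 0.24) had positive values, and Slc1a3 (-0.24 ± 0.38), Kcnj10 (-0.23 ± 0.26) and Gja1 (-0.18 ± 0.26) negative ones. After correcting for length and GC, with the block, Slc1a3 (0.036) and Gja1 (0.068) turned positive and Kcnj10 stayed negative (-0.20). In that fit Slc1a2 (0.32 ± 0.13, adjusted p = 0.175, edgeR) and S100b (0.29) exceeded Aqp4 in size.

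The surroundings of these genes in their pathways were followed in 7 lists, of which edgeR's test and limma voom without the block called 0 genes in every dose comparison. Without a block, DESeq2 called 8 of the 8 proliferation genes at 2 Gy and 24 h, 3 between 2 and 0.1 Gy and 1 for the interaction, all lower, and edgeR on all 24 libraries in a single fit called 7 at 2 Gy and 24 h. Neither called a gene of the 6 other lists in a dose comparison. With the block at 24 h, in the list of glutamate and glutamine handling 1 of 14 tested genes was called at each dose, a share close to that over all genes at 0.1 Gy (6.84%) and below it at 2 Gy (13.2%). It was the glutamine carrier Slc38a2, which fell at 0.1 Gy by 0.30 ± 0.086 (SE; adjusted p = 0.0486) and at 2 Gy by 0.47 ± 0.097 (adjusted p = 0.0215, edgeR). The median of the list was -0.14 at both doses, while Slc1a4 and Glud1 were not called. Of 13 genes of ion transport, the sodium bicarbonate cotransporter Slc4a4 fell by 0.41 ± 0.097 at 0.1 Gy and by 0.45 ± 0.11 at 2 Gy, and Mlc1, a membrane protein of astrocyte endfeet, rose by 0.39 ± 0.10 at 2 Gy (edgeR). The sodium pump subunit Atp1b2 was not called.

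Of 11 genes of water channels and of the dystrophin complex, which anchors aquaporin-4 at endfeet, 0 were called with the block at 0.1 Gy. At 2 Gy dystrophin, Dmd, fell by 0.31 ± 0.084 (SE; adjusted p = 0.0421, edgeR). Of 6 tested connexins and junction scaffolds at 2 Gy, Gjc1 (-0.69 ± 0.14) and Tjp1 (-0.36 ± 0.098) fell, and at 0.1 Gy 0 of 7 were called. Among 15 other astrocyte genes, the metallothionein Mt1 rose at 0.1 and 2 Gy by 0.61 ± 0.099 and 0.84 ± 0.11, and the lipid carrier Apoe by 0.66 ± 0.12 and 0.76 ± 0.11. Gpr37l1 (0.48 ± 0.095) and the intermediate filament gene Gfap (0.36 ± 0.098) rose at 2 Gy (edgeR). Of the 12 glycolytic neighbours of Aldoc 0 were called at either dose, with medians of 0.15 at both doses.

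For comparison, of 8 proliferation genes 5 fell at 0.1 Gy and 8 fell at 2 Gy at 24 h, with medians of -0.40 and -1.15 (edgeR with the block). After correcting for length and GC, 2 genes of the list of other astrocyte genes, Mt1 and Apoe, and 2 (0.1 Gy) and 8 (2 Gy) proliferation genes were called, and no gene of the 5 other lists. Without replicate number 2 or without number 4, no gene of the 7 lists was called at 0.1 Gy, the proliferation genes included. At 2 Gy 6 proliferation genes and no other gene of the lists were called without number 2. Without number 1 there were 7 proliferation genes and Mt1, and without number 4 there were 8 with Mt1 and Apoe. The other list genes named at 2 Gy were thus lost in each of these fits. Without number 3 the glycolytic list had 2 higher genes at 0.1 Gy (Pfkm and Pkm) and 6 at 2 Gy, of 12 tested. This stood beside the 23.2% and 33.1% of all genes called in these fits, in which each of the other lists held calls as well. For the interaction with the block, Slc38a2 (-0.61 ± 0.16) and Dmd (-0.52 ± 0.15) were negative and Mlc1 (0.54 ± 0.15), Apoe (1.03 ± 0.20), Mt1 (1.02 ± 0.20) and Gpr37l1 (0.60 ± 0.14) positive, at adjusted p-values from 0.0335 to 0.0498 (edgeR). Of the 8 proliferation genes 7 were lower (edgeR with the block). Without replicate number 1, or without number 2, no gene of the 7 lists was called for the interaction, and the calls over all genes went from 1143 to 0. After correcting for length and GC, Mt1, Apoe and 7 proliferation genes were called for it.

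From 6 h to 24 h without radiation, edgeR's test without the block called 7 of the 79 tested genes of these lists (8.86%), beside 6.70% of all genes. The potassium channel Kcnk2 rose by 0.89 ± 0.14 (SE) and the dystrophin partner Dtna by 1.01 ± 0.21, and the transcription factors Nfia and Nfib, which act in astrocyte formation, rose by 1.13 ± 0.13 and 1.01 ± 0.16. Connexin 26, Gjb2, fell by 3.64 ± 0.69. Of the glycolytic neighbours of Aldoc, the glucose carrier Slc2a1 fell by 1.25 ± 0.18 and hexokinase 2, Hk2, by 1.03 ± 0.19, at adjusted p-values of 0.00831 and 0.0182 (edgeR). None of the 14 genes of glutamate handling and none of the 8 proliferation genes was called in this comparison.

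Across the 24 libraries some of the 9 genes moved together. Libraries of the same replicate number are not independent points, so the following Pearson correlations of log2 CPM are descriptions. Aqp4 and Kcnj10 were closest among the 9, with r = 0.887, and Slc1a3 was closest to Kcnj10, with r = 0.828. Slc1a2 was most opposite to Aldh1l1, with r = -0.845, and S100b to Aldh1l1, with r = -0.67. Aldoc resembled no other gene of the 9 beyond r = 0.34 (S100b).

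Over all genes the nearest to each were as follows. Slc1a2 was nearest to Plcl1, Slc44a1 and Ppm1l (r from 0.913 to 0.922), and Slc1a3 to Colec12, Ntrk2 and Tmem47 (0.931 to 0.948). Glul had looser neighbours, Nxpe1-ps, Pla2g5 and Hgsnat (0.799 to 0.81). Aqp4 and Kcnj10 shared Tor1aip1 (0.939 and 0.904) as their nearest gene, followed by Acer3 and Filip1l for Aqp4 and by Gpr155 and Stk4 for Kcnj10. Gja1 was nearest to Ttc39b, Pde4d and Il1r1 (0.949 to 0.957), Aldh1l1 to Bin3, Nupr1 and Pld3 (0.961 to 0.968), Aldoc to C1ql1, Hist1h4h and Nnat (0.807 to 0.821) and S100b to Scrg1, Sncb and Thy1 (0.907 to 0.924).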

How the data were processed

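The sequencing company selected polyadenylated RNA, sequenced paired reads, trimmed and mapped them, per the study's methods. The deposited values are the authors' read counts of 49315 genes in every library, neither normalized nor pooled. The submitters' processing notes name the build mm10, and 44858 of the genes have the same span in GENCODE M21 (GRCm38). The aligner, the counter and the use of strand are not given in the sources used here. The counts of the 36 pairs of libraries within a group differed by more than sampling noise (lowest chi-square per degree of freedom 25.9, genes with at least 10 counts in the pair), so each library was counted as 1 replicate.

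The tests ran in edgeR 4.0.16 under R 4.3.3 (TMM, filterByExpr, quasi-likelihood test, Benjamini-Hochberg over all genes tested), on the libraries of the groups compared, with 7 comparisons. CPM and RPKM were scaled by TMM over 24 libraries, and log2 CPM used a prior count of 2. Scripts were tested on simulated data. Libraries of the same replicate number deviated together from their group means within a time (correlation across genes 0.514 to 0.907), and the numbers were taken to pair them there, but not between 6 h and 24 h (lowest correlation 0.0887). The alternatives were the replicate block alone, with per-library spline offsets for length and GC (5 degrees of freedom) or without each replicate number, limma 3.58.1 (voom), DESeq2 1.42.0, edgeR scaled by DESeq2's size factors or unscaled, no filter, at least 10 counts in every library, all 24 libraries in a single fit, a minimum absolute log2 fold change of 1, and each library left out in turn.

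The genes and lists were chosen with earlier results of these data known. Named are the 10 genes, those of the lists at an adjusted p under 0.05 (the 4 smallest per list and comparison), and for each of the 9 tested genes the 3 genes most like it. Some results of the lists are not reported here. Other list genes are named as not called after their values were seen. Single log2 fold changes within 0.1 of 0 are not given, a limit set after the values were seen.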

Additional observations from a re-analysis of the deposited data

Results flagged for a closer look

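Of 54 groups of 4 libraries (9 genes in 6 groups), 4 held a library whose distance from its nearest neighbour exceeded the share of the group's range that Dixon's test allows. Chance alone gives about 1 in 20 groups. Gja1 was low in replicate 4 of 0 Gy at 6 h, with 168.2 CPM beside 246 to 261 CPM in the other 3 libraries, and in replicate 4 of 2 Gy at 6 h, with 208.9 CPM beside 259.5 to 268 CPM. S100b was high in replicate 2 of 0.1 Gy at 6 h, with 4.514 CPM beside 1.49 to 1.98 CPM, and in replicate 2 of 2 Gy at 24 h, with 5.306 CPM beside 2.08 to 2.31 CPM.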

How the results depend on the processing

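Of 36 log2 fold changes of single genes that were at least 0.1 from 0, 4 turned under the alternatives that left no library out, all under the replicate block together with the length and GC correction: Slc1a2 (0.018) and Slc1a3 (0.102) at 2 Gy and 24 h, and Slc1a3 (0.036) and Gja1 (0.068) in the interaction. Of 27 values within 0.1 of 0, 26 changed sign under at least 1 alternative. The number of genes called went from 0 to 1 with the replicate block at 2 Gy and 24 h (Aldh1l1). Between 24 h and 6 h, where the numbers were not taken to pair the libraries, it went from 0 to 1 (Aldoc) with the block, with DESeq2 and with all 24 libraries in a single fit. There 5 of 8 libraries correlated best with the library of their own number, and the block moved the calls over all genes from 1064 to 2428. The block changed no other call of the 9 genes. The median of the 9 genes at 2 Gy and 24 h was 0.028 with the block and that correction.

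With libraries or numbers left out, the genes called ranged from 0 to 3 at 0.1 Gy and at 2 Gy at 24 h, and from 0 to 1 between the times and in the interaction. The median of the 9 genes ranged from -0.066 to 0.042 at 0.1 Gy and 6 h, from -0.035 to 0.072 at 2 Gy and 6 h, from -0.226 to 0.035 at 0.1 Gy and 24 h, from -0.162 to 0.009 at 2 Gy and 24 h, from -0.094 to 0.096 between the doses, from -0.159 to 0.038 between the times, and from -0.193 to 0.109 in the interaction. Single values changed sign in these ranges: S100b at 6 h from -0.86 to 0.04 (0.1 Gy) and from -0.78 to 0.137 (2 Gy), between the times from -0.526 to 0.224 and in the interaction from -0.057 to 0.881; Slc1a3 at 2 Gy from -0.022 to 0.222 (6 h) and from -0.271 to 0.033 (24 h); Gja1 at 2 Gy and 6 h from -0.024 to 0.172; Slc1a2 at 24 h from -0.404 to 0.04 (2 Gy against 0 Gy) and from -0.075 to 0.391 (2 Gy against 0.1 Gy); and Aldh1l1 from -0.002 to 0.635 at 2 Gy and 24 h and from -0.493 to 0.024 between the times. Others kept their sign but moved widely, such as Slc1a2 at 2 Gy and 6 h (-0.411 to -0.056), and at 24 h Aldh1l1 at 0.1 Gy (0.033 to 0.547), Slc1a2 at 0.1 Gy (-0.56 to -0.204), Aqp4 at 0.1 Gy (-0.557 to -0.151) and at 2 Gy (-0.512 to -0.14), and Kcnj10 at 2 Gy (-0.303 to -0.048). The cause was not tested.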
